A study of Mus musculus with 6 samples.

Results

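Natural killer (NK) cells of transplanted mouse melanomas were picked out cell by cell from single-cell RNA counts of whole tumour digests. A kept barcode was called an NK cell when it held at least 2 UMIs (unique molecular identifiers, each counting 1 captured mRNA molecule) of Ncr1, Klrb1c and Klre1 together, no UMI of the T cell receptor chains Cd3d, Cd3e and Cd3g, and at most 1 UMI of the macrophage genes C1qa, C1qb and C1qc. This gave 798 NK cells among 52390 kept cells. Barcodes were kept from 300 detected genes and 500 UMIs upwards, with a mitochondrial share of no more than 20%. The comparison class was 3023 CD8 T cells, kept cells with at least 1 Cd3 UMI, at least 1 UMI of Cd8a or Cd8b1 and at most 1 C1q UMI. Because the gate used them, the levels of Ncr1, Klrb1c, Klre1, Cd8a, Cd8b1 and the Cd3 genes are given below as description only.

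All 6 libraries came from YUMMER1.7 tumours, grown under the skin of male C57Bl/6 mice aged 6 to 8 weeks after injection of 600000 cells of this mouse melanoma line. Every mouse carried such a tumour, and no tumour-free group was analysed here. The 3 sedentary libraries (1, 2 and 3) are from mice that were not run. The 3 exercise libraries (5, 6 and 8) are from mice that ran at 12 m/min for 45 min per day over 14 days, after random assignment once tumours had formed. Digests were not sorted, so NK cells were measured beside tumour, myeloid and T cells. The labels give each library a number and a treatment but do not name the animal, and p-values between groups measure the spread between these libraries. Library totals ran from 97426009 to 131778565 UMIs, and NK cells held 416213 to 742380 of the UMIs of a library.

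NK cells are lymphocytes that kill stressed, infected or transformed cells without a rearranged antigen receptor. They weigh signals from activating receptors, many of which act through the adaptors Tyrobp (DAP12), Fcer1g and Hcst (DAP10), against signals from inhibitory receptors for MHC class I, such as Ly49 proteins and the Klrd1 (CD94) and Klrc1 (NKG2A) pair. Eomes and Tbx21 (T-bet) are the transcription factors of the lineage, perforin and granzymes are its killing proteins, and interferon gamma and the chemokines Xcl1, Ccl3, Ccl4 and Ccl5 are among its secreted products. CD8 T cells share much of this machinery, which is why they are the comparison here.

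The promoters of 6 NK genes are shown because these genes carry the contrasts that follow: Ncr1 (NKp46) is a receptor the gate used, Gzma and Gzmb encode the main granzymes, and Gzmc, Gzmd and Gzme belong to a run of granzyme genes that differed between NK and CD8 T cells and among NK cells. Each sequence is the 250 bases just upstream of the annotated start in RefSeq (build GRCm38.p6), 5′ to 3′ on the gene's own strand. Capitals mark matches, on either strand, to the letters TGTGGT (a RUNX core), AGGTGT (a T-box core), CAGGAAG (an ETS core), TGANTCA (an AP-1 site) or TTCNNNGAA (a STAT site). Ncr1 lies at chr7:4337465-4337714 on the plus strand. The others are on the minus strand, Gzma at chr13:113100982-113101231, Gzmb at chr14:56262335-56262584, Gzmc at chr14:56234658-56234907, Gzmd at chr14:56132594-56132843 and Gzme at chr14:56120626-56120875.
Ncr1: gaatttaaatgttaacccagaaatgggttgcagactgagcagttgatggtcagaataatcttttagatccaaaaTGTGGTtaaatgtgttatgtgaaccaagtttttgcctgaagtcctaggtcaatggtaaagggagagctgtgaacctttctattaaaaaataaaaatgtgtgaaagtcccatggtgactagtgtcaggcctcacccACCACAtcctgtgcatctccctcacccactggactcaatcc
Gzma: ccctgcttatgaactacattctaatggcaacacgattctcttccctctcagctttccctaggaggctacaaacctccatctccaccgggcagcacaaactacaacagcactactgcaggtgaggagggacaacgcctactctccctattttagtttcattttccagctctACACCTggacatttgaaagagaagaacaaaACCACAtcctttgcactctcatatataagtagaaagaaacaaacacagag
Gzmb: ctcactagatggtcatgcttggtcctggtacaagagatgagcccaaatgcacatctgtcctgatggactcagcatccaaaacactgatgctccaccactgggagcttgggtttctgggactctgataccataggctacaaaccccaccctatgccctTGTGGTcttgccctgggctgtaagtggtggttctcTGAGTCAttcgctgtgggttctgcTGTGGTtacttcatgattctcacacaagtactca
Gzmc: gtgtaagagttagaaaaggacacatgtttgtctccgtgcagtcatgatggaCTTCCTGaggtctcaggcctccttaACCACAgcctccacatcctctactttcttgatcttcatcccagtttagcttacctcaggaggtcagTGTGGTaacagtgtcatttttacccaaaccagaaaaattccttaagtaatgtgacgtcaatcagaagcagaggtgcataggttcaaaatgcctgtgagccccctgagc
Gzmd: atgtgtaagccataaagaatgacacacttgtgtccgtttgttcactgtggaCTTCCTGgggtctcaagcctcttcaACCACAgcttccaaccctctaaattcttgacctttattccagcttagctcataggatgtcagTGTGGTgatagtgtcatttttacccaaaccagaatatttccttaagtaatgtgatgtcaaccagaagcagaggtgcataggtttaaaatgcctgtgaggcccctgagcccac
Gzme: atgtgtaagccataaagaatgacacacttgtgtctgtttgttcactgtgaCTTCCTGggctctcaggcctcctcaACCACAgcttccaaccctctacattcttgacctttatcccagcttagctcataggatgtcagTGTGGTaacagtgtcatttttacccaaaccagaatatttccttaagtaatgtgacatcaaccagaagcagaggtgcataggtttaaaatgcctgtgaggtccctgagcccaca
The RUNX letters were found in all 6 and in the same window of Gzmf and Gzmg, 8 of 8 in all, against 14.2% of 27025 promoters of the same length. The ETS letters were found in the 5 genes Gzmc to Gzmg and in 10.5% of all promoters. The T-box letters were found only in Gzma among the 8 (12.0% of all), the AP-1 letters only in Gzmb (6.87%), and the STAT letters in none (7.18%). No match overlapped another. The Gzmc to Gzmg windows are close copies, with 71.5% to 94.8% identical bases between pairs and 94.8% for Gzmd and Gzme, whereas pairs that include Ncr1, Gzma or Gzmb had 46.7% to 52.2%. Matches in these 5 genes are therefore not separate instances, and a match of letters is no evidence of binding.

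The gate found cells with the features of NK cells in every library. Eomes, which the rule did not use, had at least 1 UMI in 37.1% to 49.4% of NK cells over the 6 libraries, in 7.97% to 15.3% of CD8 T cells and in 0.715% to 1.81% of tumour-like cells (at least 10 UMIs of a melanoma and stromal gene list), given as a background whose source was not tested. Median depth was 2098 to 3074 UMIs per NK cell, 2501 to 3813 per CD8 T cell and 15636 to 26084 per tumour-like cell, so the background was measured at the greater depth. Tyrobp was seen in 89.9% to 98.7% of NK cells, 6.37% to 9.54% of CD8 T cells and 4.41% to 8.12% of tumour-like cells, and Cd8a in 1.01% to 1.77% and 76.9% to 84.3%. With every cell thinned to 1500 UMIs, which left out 139 NK cells, Eomes was seen in 21.7% to 25.6% of NK and 2.78% to 6.41% of CD8 T cells. No Cd4 UMI was found in any NK cell.

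Cells at the edge of the gate had intermediate values. The 182 NK cells with exactly 2 UMIs of the 3 NK genes had 84.8 Eomes CPM (UMIs of a gene scaled to a common total of 1e6, here pooled over the cells), the 616 with more had 161 CPM, and 396 cells left out with 1 UMI had 19.3 CPM. Gzma stood at 2154, 3911 and 350.0 CPM in the same cells. A further 57 cells were left out for a single Cd3 UMI, with 98.7 Eomes and 3.80 Cd8a CPM, and 563 for more, with 395 Cd8a CPM. The 93 NK cells with 1 C1q UMI lie inside the gate, and 16 cells with 2 C1q UMIs lie just outside it.

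Some NK barcodes also held RNA of other cells. Of the 798, 106 (13.3%) had 3 or more UMIs from a macrophage, tumour-like, neutrophil, B cell or dendritic gene list, and because they were large they held 43.6% of all NK UMIs. These mixed barcodes were 10.1% to 15.6% of the NK cells of a library and 50 of the 53 NK barcodes over 10000 UMIs. A T cell gene list was not used for them. It had 3 or more UMIs in 23.7% to 43.4% of the NK cells of a library, and 480 NK cells were left when it was used too. The summed tumour-like list stood at 676 to 1016 CPM in all NK cells, at 143 to 228 CPM without mixed barcodes and at 2030 to 2543 CPM in tumour-like cells. In all NK cells its sedentary values (847 to 1016 CPM) lay above its exercise values (676 to 806 CPM); without mixed barcodes the groups overlapped (155 to 187 and 143 to 228 CPM). Counts of calls and genes that carry a comparison are therefore also given for the 692 NK cells left without them, a choice made after seeing the data that lowers the listed genes by construction. A pair of NK cells in sedentary 3 and exercise 8 shared 1 barcode, and 10 NK cells had a barcode that was also kept in another library.

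NK cells were a small part of every tumour digest. Counts were 77, 113 and 132 cells for sedentary 1, 2 and 3, and 143, 198 and 135 cells for exercise 5, 6 and 8. As a share of kept cells this was 0.971% (95% Clopper-Pearson interval 0.767% to 1.21%), 1.57% (1.29% to 1.88%) and 1.39% (1.16% to 1.64%) in the sedentary libraries. In the exercise libraries the share was 1.75% (1.48% to 2.06%), 2.09% (1.81% to 2.39%) and 1.34% (1.12% to 1.58%), where the intervals cover counting error only. Exercise 5 and 6 were above all sedentary libraries and exercise 8 lay within the sedentary range. The means were 1.31% ± 0.306 (SD, n = 3) and 1.72% ± 0.373 (SD, n = 3), a difference of 0.415 percentage points (exact two-sided permutation p = 0.3, where 0.1 is the smallest p that 3 against 3 allows).

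**Figure D1:**
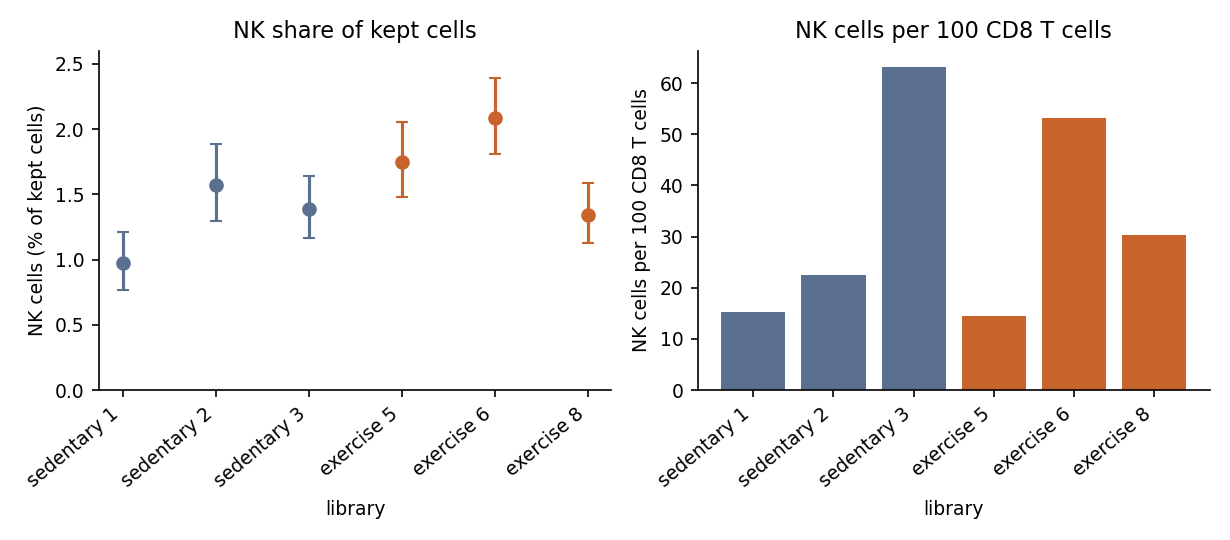
Left, NK cells as a percentage of kept cells in each library, with 95% Clopper-Pearson intervals for counting error; right, bars of NK cells per 100 CD8 T cells in each library. The exercise shares (1.34% to 2.09%) overlap the sedentary ones (0.971% to 1.57%), and the ratio varies from 14.4 to 63.2 with both groups covering most of that range.

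The balance of NK to CD8 T cells differed more between libraries than between groups. Sedentary 1, 2 and 3 had 15.3, 22.5 and 63.2 NK cells per 100 CD8 T cells, and exercise 5, 6 and 8 had 14.4, 53.2 and 30.3. Sedentary 3 had the fewest CD8 T cells (209) and exercise 5 the most (991), and these libraries gave the highest and lowest ratio. The means were 33.7 ± 25.8 and 32.6 ± 19.5 (SD, n = 3 each, exact two-sided permutation p = 0.9). Among cells with at least 1 UMI of the leukocyte gene Ptprc (CD45), NK cells made up 3.69%, 3.72% and 7.31% in the sedentary and 3.71%, 8.02% and 5.33% in the exercise libraries (exact two-sided permutation p = 0.6).

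NK and CD8 T cells of the same tumours differed in receptors, granzymes, chemokines and proliferation genes. Raw UMIs were summed over the cells of each class in each library, and the 12 sums were compared with edgeR's quasi-likelihood test, with the library as a block. Of 7677 genes, 1292 (16.8%) passed a Benjamini-Hochberg adjusted p of 0.05, 619 higher in NK cells (8.06%) and 673 lower (8.77%). Without mixed barcodes 1665 of 5394 passed (30.9%), 844 higher and 821 lower. Of the 1292 calls, 1094 were called again, all in the same direction, which is 84.7% of the first list and 65.7% of the second. In what follows a gene is called higher or lower only if it passed, a pair of CPM values gives the NK mean and then the CD8 T mean over 6 libraries, and log2 fold is NK over CD8 T.

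Ly49 receptors, most of which bind MHC class I, were higher in NK cells wherever they could be tested. Klra8 (Ly49H), an activating receptor for a cytomegalovirus protein, lies at chr6:130115226-130129898 (mm10) and ran from 247 to 304 CPM (median 259.9) over the NK sums and from 0 to 4.10 CPM (median 0.603) over the CD8 T sums. The ranges lie far apart, and the log2 fold was 8.26 (edgeR adjusted p = 2.00e-16). The size of this fold rests on low CD8 T counts, so no SE is given for it. Of 12 Ly49 genes listed, 11 were in the table and had NK UMIs, 6 had counts enough to be tested, and all 6 were higher in NK cells. Klra1, Klra7, Klra8 and Klra9 had CD8 T means of 0.859 to 3.66 CPM and passed the count filter through their NK counts. The count of 6 of 6 is therefore largely set by that filter and is given as description. They include the inhibitory receptors Klra7 (Ly49G; 213 and 3.66 CPM, log2 fold 5.78), Klra9 (Ly49I; 122 and 1.70 CPM, log2 fold 5.91), Klra1 (Ly49A; 57.0 and 0.859 CPM, log2 fold 5.70) and Klra3 (Ly49C; 89.1 and 11.1 CPM, log2 fold 3.02). Klra4 (Ly49D), an activating member, had 333 and 49.7 CPM, log2 fold 2.81, and 5.29 without mixed barcodes; it was also read at 139 CPM in tumour-like cells. Any Ly49 gene was seen in 78.8% to 86.7% of NK cells, 12.0% to 16.9% of CD8 T cells and 49.9% to 72.4% of tumour-like cells. Klra4 made up nearly all of the last: with Klra4 left out the shares were 73.5% to 80.0%, 4.93% to 7.97% and 2.29% to 4.46%. At least 2 different Ly49 genes other than Klra4 were seen in 39.4% to 51.9% of NK cells, 0.448% to 1.195% of CD8 T cells and 0% to 0.106% of tumour-like cells. Ly49 genes are close copies of each other, so how reads were divided among them is uncertain.

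The signalling adaptors of the activating receptors were among the clearest NK genes. Tyrobp ran from 1453 to 1774 CPM (median 1688) over the NK sums and from 32.6 to 63.6 CPM (median 49.1) over the CD8 T sums, with a log2 fold of 5.12 (SE 0.09, edgeR adjusted p = 8.33e-19). Fcer1g ran from 1082 to 1338 CPM (median 1295) over the NK sums and from 51.8 to 92.3 CPM (median 68.8) over the CD8 T sums, with a log2 fold of 4.16 (SE 0.09). Neither gene's ranges overlapped. Hcst, which couples Klrk1 (NKG2D) and is shared with T cells, had 348 and 388 CPM, log2 fold -0.11 and was not called (edgeR adjusted p = 0.532). Of 17 activating receptors and adaptors tested, 11 were higher in NK cells and 3 lower, with a median log2 fold of 0.77 against 0.00 over all genes tested. Among the higher were Klrk1 (514 and 263 CPM, log2 fold 0.99), Cd244 (2B4; 94.4 and 36.5 CPM, log2 fold 1.42), Klrc2 (NKG2C; 117 and 77.8 CPM, log2 fold 0.62) and the Fc receptor Fcgr3 (CD16; 28.3 and 8.62 CPM, log2 fold 1.73). Cd226 (DNAM-1), Cd247 (CD3 zeta) and Cd160 were lower, Cd226 with 15.4 and 78.1 CPM, log2 fold -2.26. Cd247 had no call without mixed barcodes.

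Checkpoint and other inhibitory receptors were mostly lower in NK cells. Of 11 tested, 8 were lower and 2 higher, with a median log2 fold of -2.14. Pdcd1 (PD-1) ran from 1.82 to 7.21 CPM (median 4.62) over the NK sums and from 119 to 204 CPM (median 166) over the CD8 T sums, a log2 fold of -5.05 (SE 0.18, edgeR adjusted p = 4.27e-14), with no overlap. Havcr2 (TIM-3; 8.88 and 101 CPM, log2 fold -3.48, -5.09 without mixed barcodes), Ctla4 (2.93 and 34.8 CPM, log2 fold -3.46), Lag3 (32.4 and 149 CPM, log2 fold -2.14), Cd200r1 (0.962 and 37.9 CPM, log2 fold -4.83), Cd96 (32.5 and 66.2 CPM, log2 fold -0.97) and Cd101 were also lower. The subunits of the CD94-NKG2A receptor went apart: Klrd1 was higher (640.4 and 474 CPM, log2 fold 0.47) and Klrc1 lower (89.8 and 126 CPM, log2 fold -0.45). Cd101 had no call without mixed barcodes. Tigit had too few UMIs to be tested, with 5.55 and 9.65 CPM.

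**Figure D2:**
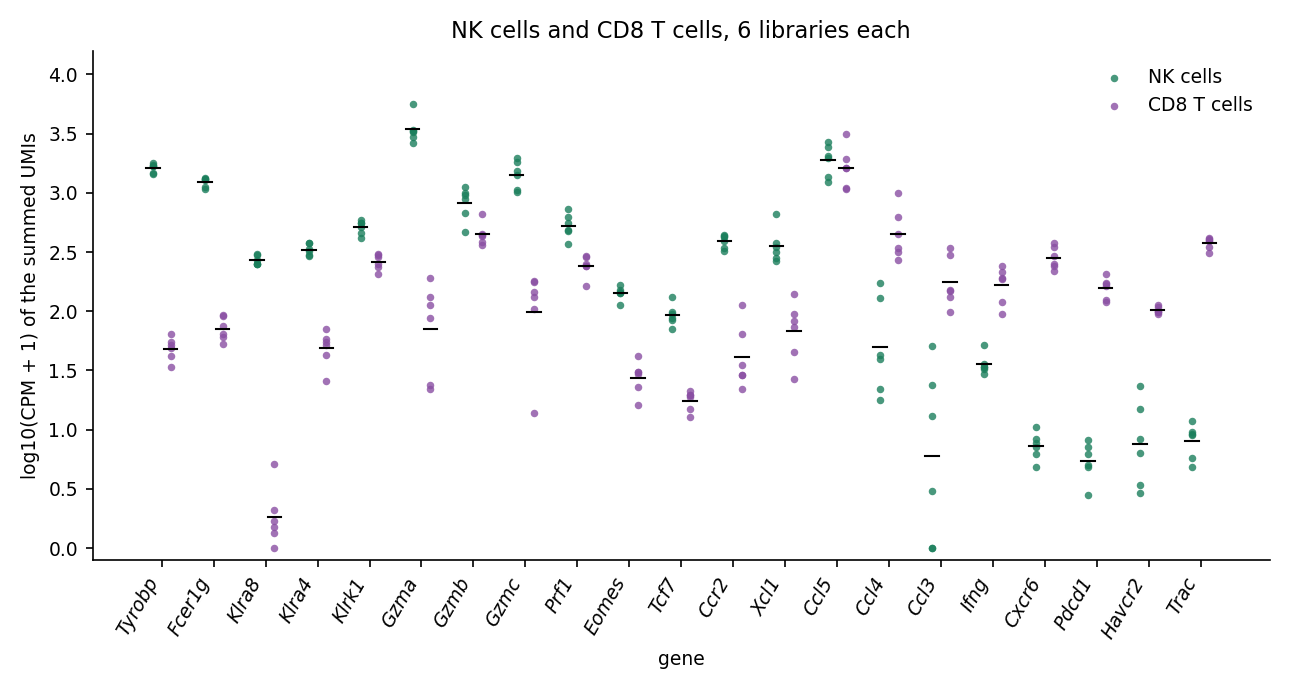
Level of 21 genes in NK and CD8 T cell sums, as CPM on a log10(CPM + 1) axis; each dot is 1 of 6 libraries and each line the mean of the logged values. Tyrobp, Fcer1g, Gzma, Gzmc and Eomes sit higher in NK cells in all libraries, Ccl4, Ifng and Pdcd1 sit lower.

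Granzyme A and granzyme C set NK cells apart from CD8 T cells among the killing genes. Gzma, a tryptase of cytotoxic granules, ran from 2628 to 5677 CPM (median 3300.1) over the NK sums and from 21.01 to 189.8 CPM (median 99.5) over the CD8 T sums. The log2 fold was 5.53 (SE 0.28, edgeR adjusted p = 8.05e-12), and Gzma was seen in 80.3% to 86.7% of NK cells, 3.33% to 10.0% of CD8 T cells and 0.472% to 1.41% of tumour-like cells. Gzmc ran from 1017 to 1986 CPM (median 1475) over the NK sums and from 12.8 to 178 CPM (median 137) over the CD8 T sums (log2 fold 3.78, SE 0.25) and was seen in 15.4% to 32.8% of NK cells, 2.42% to 14.7% of CD8 T cells and 0.652% to 1.62% of tumour-like cells. Gzmb, the granzyme of most effector T cells, differed less, with 849 and 455 CPM, log2 fold 0.90 (SE 0.10), as did perforin, Prf1, with 540.3 and 245 CPM, log2 fold 1.16 (SE 0.08).

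The remaining granzymes of the Gzmc run rested on few cells. Gzmd ran from 94.4 to 1499 CPM (median 265) over the NK sums and from 7.36 to 96.0 CPM (median 50.8) over the CD8 T sums and was called higher (log2 fold 2.90, 1.67 without mixed barcodes). Its highest value, in sedentary 2, came from 733 UMIs of which 393 lay in 1 cell. Gzme was called higher too (log2 fold 2.16, 0.99 without mixed barcodes). Gzmf turned with the mixed barcodes, from a log2 fold of 0.85 (edgeR adjusted p = 0.536) to -1.31 without them (edgeR adjusted p = 0.00140), and 1011 of its 1068 NK UMIs in sedentary 2 lay in 1 cell. These genes are close copies, and how reads were divided among them is uncertain.

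Over the whole killing list 12 of 20 tested genes were higher in NK cells and 1, Tnfsf10 (TRAIL), was lower, with a median log2 fold of 0.56. The protease inhibitors Serpinb9 (322 and 71.8 CPM, log2 fold 2.22) and Serpinb6b (293 and 89.9 CPM, log2 fold 1.73), known to shield killer cells from their own granzymes, were higher, as were Fasl (91.2 and 65.7 CPM, log2 fold 0.50), Ctsw (350.2 and 233 CPM, log2 fold 0.62) and the granule proteoglycan Srgn (541 and 455 CPM, log2 fold 0.28). The granule genes Nkg7 (1249 and 1219.7 CPM, log2 fold 0.06, edgeR adjusted p = 0.631) and Cst7 (132 and 123 CPM, log2 fold 0.16, edgeR adjusted p = 0.372) were not called, nor were the release genes Rab27a, Unc13d and Stx11.

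Secreted factors split between the classes. Xcl1, a chemokine that draws cross-presenting dendritic cells, ran from 267 to 663 CPM (median 333) over the NK sums and from 25.6 to 138 CPM (median 77.7) over the CD8 T sums, a log2 fold of 2.33 (SE 0.14). Ccl4 went the other way, from 16.8 to 171 CPM (median 40.3) over the NK sums and from 271 to 992 CPM (median 397) over the CD8 T sums, a log2 fold of -2.83 (SE 0.22). Neither pair of ranges overlapped. Ccl3 (14.5 and 194 CPM, log2 fold -3.65), Ifng (35.2 and 174 CPM, log2 fold -2.22) and Ccl1 (log2 fold -5.84) were lower in NK cells as well, and Ifng was seen in 9.85% to 12.99% of NK, 26.3% to 36.0% of CD8 T and 0.139% to 0.480% of tumour-like cells. Ccl5 was at 1959 ± 576 CPM in NK and 1750.3 ± 753 CPM in CD8 T sums (SD, n = 6) and was not called (log2 fold 0.23, edgeR adjusted p = 0.0686), but it was called at 0.22 without mixed barcodes (edgeR adjusted p = 0.0156). Of 10 cytokine and chemokine genes tested, 3 were higher (Xcl1, Flt3l and Tgfb1) and 5 lower.

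Eomes, the factor that separates NK cells from type 1 innate lymphoid cells (ILC1), lies at chr9:118478212-118486132 (mm10) and ran from 112 to 165 CPM (median 143) over the NK sums and from 15.1 to 40.5 CPM (median 29.2) over the CD8 T sums. The ranges did not overlap, and the log2 fold was 2.40 (SE 0.16, edgeR adjusted p = 4.67e-10). Tbx21 was higher by less (44.9 and 27.5 CPM, log2 fold 0.74). Of 22 transcription factors tested 11 were higher and 6 lower, with a median log2 fold of 0.48. Tcf7 (TCF1; 93.7 and 16.9 CPM, log2 fold 2.52), Klf2 (103 and 22.5 CPM, log2 fold 2.18), Irf8 (466 and 133 CPM, log2 fold 1.83) and Nfil3 (42.5 and 21.7 CPM, log2 fold 0.99), needed for NK development, were among the higher. Tox (31.1 and 179 CPM, log2 fold -2.50), a factor of chronically stimulated T cells, and Bcl11b (2.05 and 66.9 CPM, log2 fold -4.90), a factor of T lineage identity, were lower.

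Gene lists for NK subsets differed in direction. Of 10 genes of mature circulating NK cells 7 were higher than in CD8 T cells and 2, Cx3cr1 and Prdm1, lower, with a median log2 fold of 2.01. Of the 7, Klra4, Klra8 and Klra9 are Ly49 genes. Klra8 and Klra9 had CD8 T means of 1.12 and 1.70 CPM and passed the count filter through their NK counts. The count is therefore partly set by that filter and is description only, beside 8.06% higher and 8.77% lower over all genes. Of 8 genes of less mature NK cells 6 were higher (Tcf7, Emb, Kit, Cd7, Ctla2a and Xcl1) and 2, Cd27 and Thy1, lower, with a median of 1.88. Of 9 genes of tissue-resident and ILC1 cells 8 were lower and only Itga1 higher, with a median of -1.72. Cxcr6 (6.46 and 288 CPM, log2 fold -5.44), Il7r (11.5 and 76.8 CPM, log2 fold -2.65) and Cd200r1 lead the lower ones, which activated CD8 T cells also express. S1pr5 (7.43 and 0.0548 CPM), Klrg1 (12.9 and 3.98 CPM) and Itgam (CD11b; 15.4 and 3.70 CPM), further genes of maturation, had too few UMIs to be tested.

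Homing receptors differed from those of CD8 T cells in both directions. Ccr2, a receptor for monocyte chemoattractants, ran from 321 to 438 CPM (median 409) over the NK sums and from 20.9 to 111 CPM (median 30.9) over the CD8 T sums, a log2 fold of 3.16. The ranges did not overlap. Itga2 (CD49b; 51.8 and 6.64 CPM, log2 fold 3.01, 4.06 without mixed barcodes) and Itgb7 (78.0 and 23.1 CPM, log2 fold 1.76) were higher, and Itga1 (CD49a) was higher by less (67.9 and 47.4 CPM, log2 fold 0.55), beside 50.5 CPM in tumour-like cells. Of 15 homing and adhesion genes tested 6 were higher and 2, Cxcr6 and Cx3cr1, lower; without mixed barcodes 9 were higher and 3 lower.

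Among 18 cytokine receptor genes 4 were higher (Il2rb, Il12rb2, Ifngr1 and Kit) and 5 lower, and 7 of 13 were higher and 3 lower without mixed barcodes. Il2rb, the chain shared by the IL-2 and IL-15 receptors, had 545 and 357 CPM, log2 fold 0.64 and Ifngr1 558 and 229 CPM, log2 fold 1.31. Il2ra, the chain that raises affinity for IL-2, was lower, with 9.05 and 22.2 CPM, log2 fold -1.26, but had no call without mixed barcodes. 

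Proliferation and sugar metabolism genes were lower in NK than in CD8 T cells. Of 15 cell cycle genes 14 were lower and Ccnb1 was not called, with a median log2 fold of -0.67. Mki67 had 142 ± 61.5 CPM in NK and 309 ± 52.3 CPM in CD8 T sums (SD, n = 6; log2 fold -1.14), and cells with at least 2 UMIs of 7 cycling genes were 11.2% to 24.4% of NK and 29.8% to 47.5% of CD8 T cells. After thinning to 1500 UMIs these shares were 5.31% to 24.0% and 20.3% to 39.4%, so the ranges then met. Of 15 glycolysis genes 11 were lower and none higher, among them Gapdh (log2 fold -0.74) and Ldha (-0.69), and of 11 hypoxia genes 3 were lower (Hif1a, Mxi1 and Ero1l). Of 14 interferon response genes 2 were higher (Oasl2 and Usp18) and 2 lower, of which Ifi27l2a had 72.4 and 1077 CPM, log2 fold -3.86. Without mixed barcodes 1 of 13 was higher and 2 lower, with Oasl2 not tested. In the glucocorticoid and adrenergic list of 6 tested genes Tsc22d3 (GILZ), a glucocorticoid target, was higher (35.5 and 22.2 CPM, log2 fold 0.67) and Sgk1 lower. Without mixed barcodes Tsc22d3 stayed higher (log2 fold 1.24) and Sgk1 was not called (-0.63, edgeR adjusted p = 0.0905). Without mixed barcodes, 10 of 15 activating receptor and adaptor genes were higher and 2 lower, 7 of 9 inhibitory receptor genes lower and 2 higher, and 12 of 19 killing genes higher and 2 lower. Of the transcription factors 14 of 22 were then higher, with Id3, Zeb2 and Gata3 added, and 6 lower. Of the cytokine and chemokine genes 4 of 9 were higher and 5 lower, and 8 of 10 maturation genes were higher and 2 lower. The maturation count is description only, as above. Of the cell cycle genes 13 of 15 were lower, Pcna being no longer called (edgeR adjusted p = 0.0563), and 11 of 13 glycolysis and 2 of 8 hypoxia genes were lower.

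**Figure D3:**
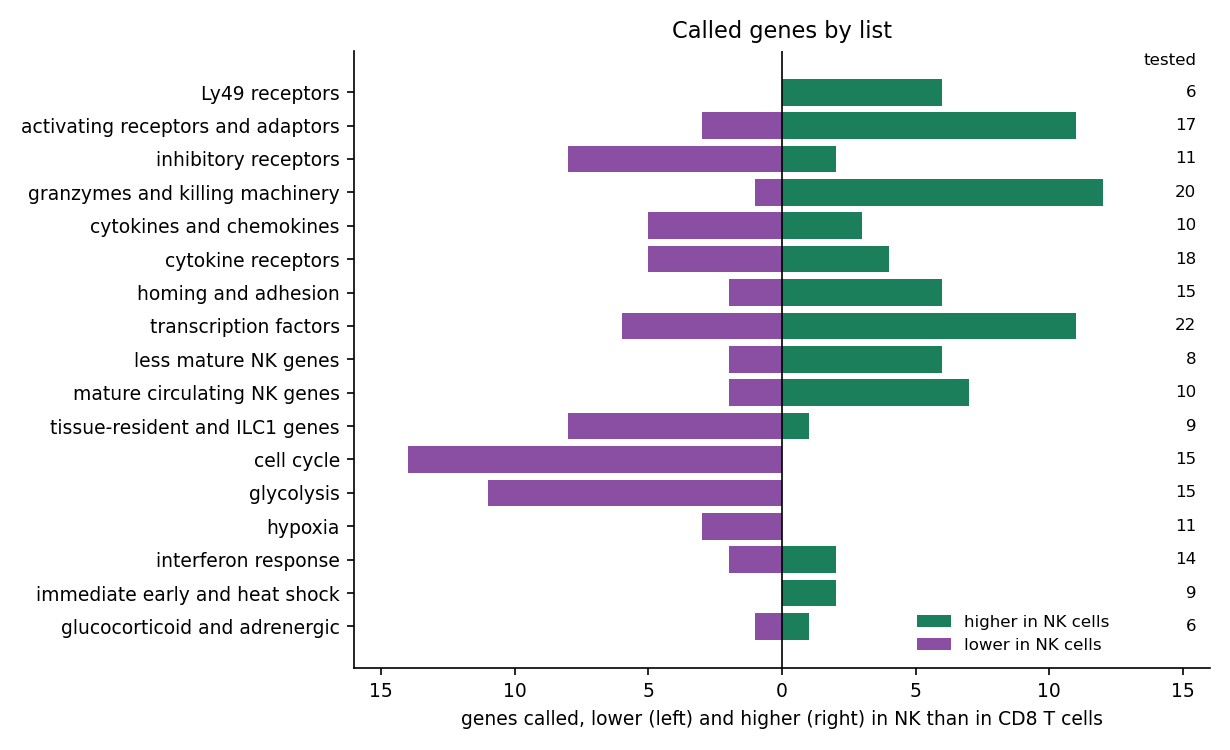
Number of tested genes of each gene list called higher (right) or lower (left) in NK than in CD8 T cells by edgeR at an adjusted p of 0.05; the number tested stands at the right. All 6 Ly49 genes tested are higher, most of which passed the count filter through their NK counts. Of the cell cycle genes 14 of 15 are lower, and 8 of 9 tissue-resident and ILC1 genes are lower.

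Of the 12 genes with the largest folds in each direction, several have no place in these lists. Klrb1a (101 and 0.504 CPM, log2 fold 7.20) and Klrb1f (195 and 3.36 CPM, log2 fold 5.84) are lectin-like receptors of the Klrb1 family. Car2, a carbonic anhydrase, had 248 and 2.38 CPM, log2 fold 6.59, the adaptor Clnk 51.1 and 0.821 CPM, log2 fold 5.86, and Atp1b1, a sodium pump subunit, 79.5 and 1.71 CPM, log2 fold 5.54. With CD8 T means of 0.504 to 2.38 CPM, Klrb1a, Car2, Clnk and Atp1b1 passed the count filter through their NK counts. The size of their folds rests on low CD8 T counts. Lower genes were largely of T cell identity, on which the Cd3 gate bears: Trac (7.40 and 377 CPM, log2 fold -5.59), Themis (log2 fold -6.81), Cd6 (0.970 and 51.3 CPM, log2 fold -5.65) and Tnfrsf4 (OX40; 2.84 and 125 CPM, log2 fold -5.43). Trgv2 and Cd5 had no UMI in any NK cell, at least 105-fold and 56.3-fold lower than in CD8 T cells against a floor of 3 counts over all NK UMIs. Trdc, the constant gene of the delta chain, was higher in NK cells (40.6 and 0.583 CPM, log2 fold 6.00), while Tcrg-C2 had no NK UMI and was at least 35.9-fold lower. The macrophage, tumour-like and dendritic marker lists, with 2, 6 and 2 genes tested, held no call with all members, while the B cell gene Ighm was higher (log2 fold 0.61) and the neutrophil gene S100a8 lower (-1.35). Without mixed barcodes Col3a1 of the tumour-like list was higher (log2 fold 0.38, edgeR adjusted p = 0.0357) and Cd74 of the dendritic list lower (-0.67, edgeR adjusted p = 0.00947), and S100a8 was not tested. UMIs of these lists defined the mixed barcodes in both classes, so the values of Col3a1 and Cd74 without them are description only.

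A small part of the higher genes, 14 of 619, lay in 1 window of the genome that was chosen after values were seen. The NK gene complex is a cluster of lectin-like receptor genes, here taken as chr6:128609227-131247362 (mm10, GENCODE M21). The window spans 2638 kb and holds 50 genes of the table, 39 of them with an NK UMI. Apart from gate genes 20 were tested, of which 14 were higher in NK cells and 2 lower, with a median log2 fold of 2.01. Over all genes tested 8.06% were higher and 8.77% lower. Klrb1a, Klrb1f, Klra1, Klra7, Klra8 and Klra9 had CD8 T means of 0.504 to 3.66 CPM and passed the count filter through their NK counts. The count of 14 is therefore partly set by that filter and is given as description. The lower ones were Klrc1 and Gm156 (1.41 and 47.3 CPM, log2 fold -4.71), and Clec2d, 2310001H17Rik, Cd69 and Gabarapl1 were not called. Without mixed barcodes Clec2d was higher (log2 fold 0.32, edgeR adjusted p = 0.0332) and Gm156 was not tested. Klrb1b (106 and 7.52 CPM, log2 fold 3.95), an inhibitory receptor, and Klri2 (109 and 10.4 CPM, log2 fold 3.41) are 2 of the 14.

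NK cells were not uniform, and the collagen-binding integrins Itga1 and Itga2 marked cells of unlike granzyme content. These genes are neighbours on chromosome 13 (Itga2 at 114833081-114932100, Itga1 at 114953096-115101964, mm10, both on the minus strand), CD49a being known from tissue-resident and CD49b from circulating NK cells. Among NK cells without mixed barcodes, 83 held Itga1 but not Itga2 UMIs (7, 7 and 16 from the sedentary and 11, 26 and 16 from the exercise libraries). Another 101 held Itga2 but not Itga1 (7, 18, 11, 23, 26 and 16 in that order), and 11 held both. The split was made after seeing the data, so its values carry no test. Itga1 cells had median depths of 1645 to 5170 UMIs and Itga2 cells 1941 to 2793. Itga1 was seen in 37.4% to 54.7% of tumour-like cells, at greater depth, against 13.3% to 20.8% of NK cells, and Itga2 in 16.9% to 21.5% against 13.6% to 24.8%. The part of free RNA in the split was not tested.

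Gzmc was far higher in the Itga1 cells than in the Itga2 cells. NK cells with neither integrin UMI are not part of this comparison. It stood at 9006, 4285 and 5572 CPM in sedentary 1, 2 and 3 and 4432, 9175 and 6393 CPM in exercise 5, 6 and 8 in the Itga1 cells. In the Itga2 cells it was at 69.1, 0 and 34.8 CPM in sedentary 1, 2 and 3 and 18.8, 264 and 127 CPM in exercise 5, 6 and 8. The ranges lay far apart, and pooled over libraries the values were 6984 and 96.3 CPM, 72.5-fold apart. Gzmd (1124 and 36.1 CPM pooled) and Gzme (526 and 4.01 CPM, the latter from 1 UMI) lay on the same side. The interferon-induced membrane gene Ifitm2 (810.4 and 84.3 CPM), Ly6c2 (824 and 144 CPM), Lag3 (101 and 20.1 CPM) and the TGF-beta receptor Tgfbr2 (111 and 36.1 CPM) were higher in the Itga1 cells of all 6 libraries. Ifitm2 was read at 486 CPM in tumour-like cells as well.

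Ccl5 and Klf2 lay on the Itga2 side. Ccl5 was at 271, 3010.2 and 363 CPM in sedentary 1, 2 and 3 and 2644, 388 and 412 CPM in exercise 5, 6 and 8 in Itga1 cells. In Itga2 cells it was at 15208, 5192 and 3239 CPM in sedentary 1, 2 and 3 and 5560.1, 2817 and 3497 CPM in exercise 5, 6 and 8. Within every library the Itga2 cells had more, 5.95-fold when pooled (804 and 4779.7 CPM). Klf2, a factor of recirculating lymphocytes, had 45.8 CPM in Itga1 and 233 CPM in Itga2 cells, and Gzma 2997 and 6887 CPM, both in the same direction in 6 libraries. Klra4 (281 and 650.1 CPM), Klra7 (216 and 441 CPM), Stat4 (141 and 313 CPM) and Zeb2 (32.7 and 108 CPM) did likewise. Eomes (206 and 269 CPM), Prf1 (869 and 791 CPM) and Tyrobp (2526 and 2484 CPM) differed little, and Cxcr6 was near the floor in both (3.27 and 4.01 CPM). Of genes with at least 100 CPM in either set, 15 were at least 2-fold higher in Itga1 and 21 in Itga2 cells in the same direction in 6 libraries. The number of genes at that level is not given here, so these counts carry no share and are description only.

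**Figure D4:**
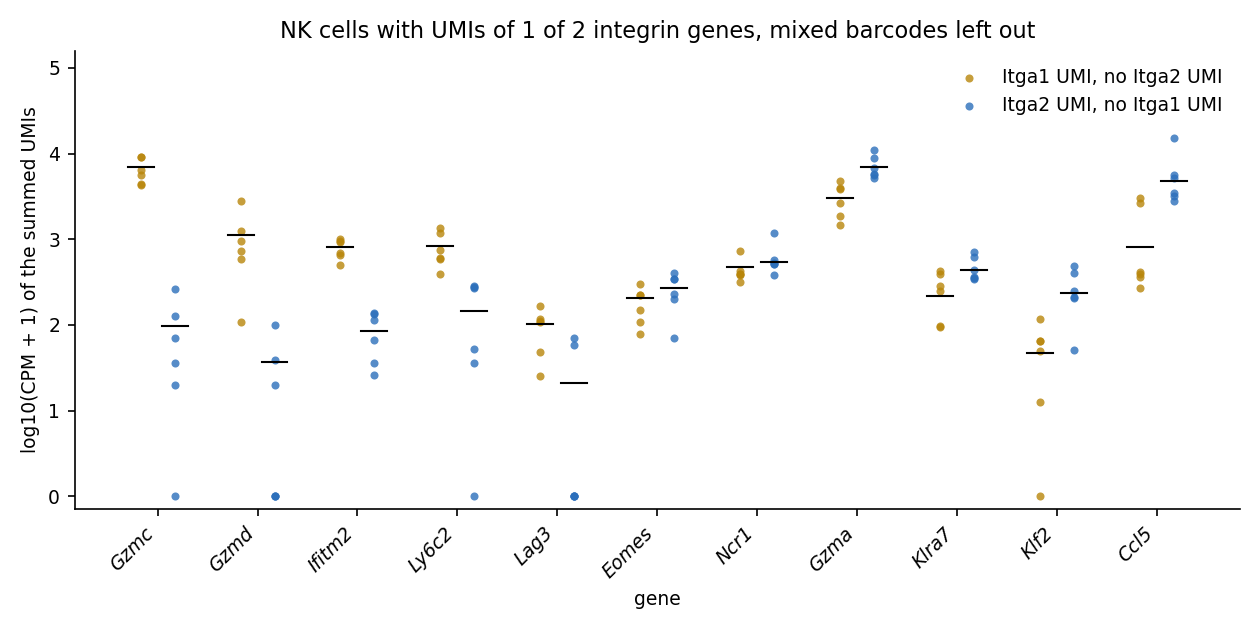
Level of selected genes in NK cells with Itga1 but not Itga2 UMIs (83 cells) and with Itga2 but not Itga1 UMIs (101 cells), as CPM on a log10(CPM + 1) axis, mixed barcodes left out; each dot is 1 of 6 libraries and each line the pooled value. Gzmc and Gzmd sit higher in the Itga1 cells and Ccl5, Klf2 and Gzma in the Itga2 cells of every library, while the Eomes and Ncr1 values of the sets overlap.

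Cells with at least 3 Gzmc UMIs numbered 108 of the 692 NK cells without mixed barcodes. Their share was 20% (13 of 65 cells), 12.2% and 21.4% over the sedentary libraries and 5.60%, 21.3% and 12.3% over the exercise libraries. The lowest and the second highest share were both from exercise, and the groups overlapped. Of the same NK cells the Itga1 set made up 10.8%, 7.14% and 14.3% over the sedentary and 8.80%, 14.6% and 14.0% over the exercise libraries. The Itga2 set made up 10.8%, 18.4% and 9.82%, and 18.4%, 14.6% and 14.0%. Both sets overlapped between the groups.

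No gene of NK cells passed the threshold between exercise and sedentary tumours when all members were used. In the comparison of the 3 exercise with the 3 sedentary sums, 0 of 6230 genes (0.0%) had an edgeR adjusted p under 0.05. At an unadjusted p of 0.05 edgeR gave 372 (5.97%), and DESeq2 called 0 of the same genes, with 125 at an unadjusted p of 0.05. Data were simulated with these library sizes and the same dispersion (extra spread between libraries) for every gene, without UMIs clumped in single cells. That dispersion was assumed, not estimated from these sums, and the recovery shares depend on it. In the simulated data the test found 33% of genes changed 2-fold and 86% of those changed 4-fold. Recovery for genes of larger spread was not tested. Without mixed barcodes 1 of 3889 genes was called (0.0257%), Ccl4, with 131 (3.37%) at an unadjusted p of 0.05 and 385 (9.9%) with groups that did not overlap.

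Ccl4 is a chemokine that draws lymphocytes and monocytes. In all NK cells it stood at 16.8, 38.9 and 20.99 CPM in sedentary 1, 2 and 3 and 171, 128 and 41.8 CPM in exercise 5, 6 and 8. The groups did not overlap, but the log2 fold of 2.10 (exercise over sedentary, SE 0.40) had an edgeR adjusted p of 0.0978. Without mixed barcodes Ccl4 stood at 29.9, 62.1 and 28.5 CPM in sedentary 1, 2 and 3 and 311, 182 and 77.1 CPM in exercise 5, 6 and 8, again with no overlap, and rose in exercise (log2 fold 2.19, SE 0.37, edgeR adjusted p = 0.00789). The call was lost without sedentary 1 (edgeR adjusted p = 0.0521) or sedentary 3 (edgeR adjusted p = 0.399) and stayed without each of the other 4 libraries, with log2 folds of 1.72 to 2.62.

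Few cells carried the Ccl4 signal. Without mixed barcodes 5, 10 and 5 cells of the sedentary libraries and 13, 15 and 15 cells of the exercise libraries had a Ccl4 UMI. As shares these were 7.69%, 10.2% and 4.46% against 10.4%, 8.43% and 13.2%, which overlapped between the groups, beside 0.627% to 3.04% of tumour-like cells. In exercise 5 a single cell held 32 of 89 UMIs and in exercise 6 a single cell held 24 of 82. With the cell of most Ccl4 UMIs taken out of each library the levels were 17.2, 48.7 and 12.7 CPM in sedentary 1, 2 and 3 and 201, 129 and 59.9 CPM in exercise 5, 6 and 8. These still did not overlap. In CD8 T cells without mixed barcodes Ccl4 stood at 697, 569 and 504 CPM in sedentary 1, 2 and 3 and 1525, 862 and 370.4 CPM in exercise 5, 6 and 8, overlapping between the groups.

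**Figure D5:**
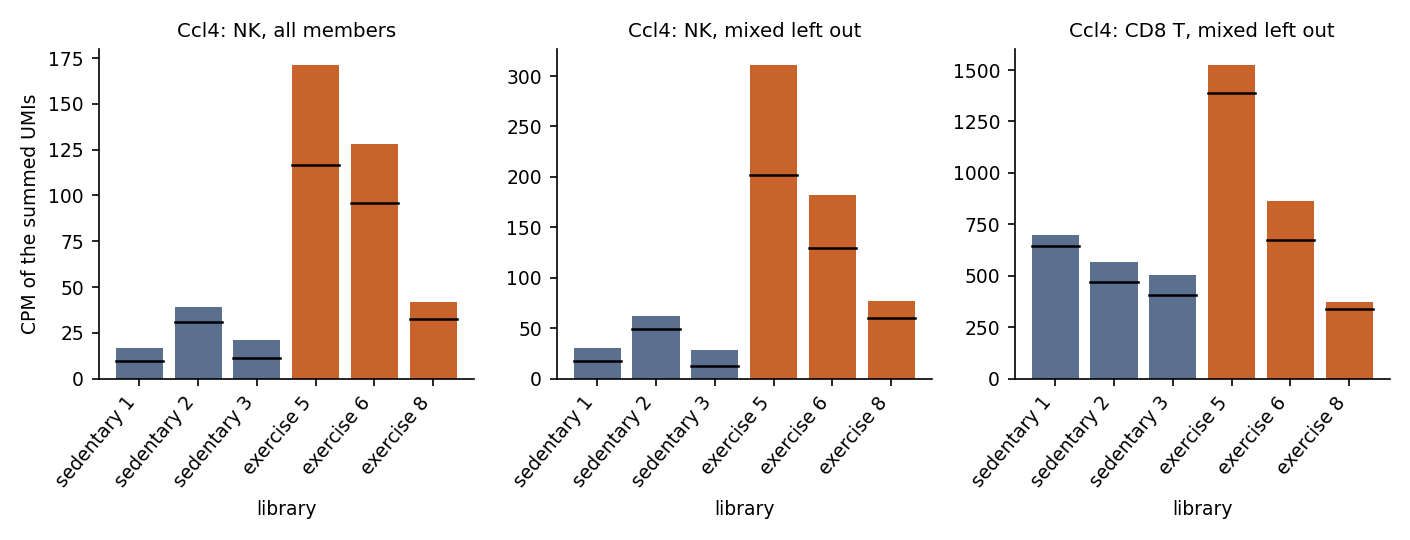
Ccl4 by library: bars of the level (CPM) in all NK cells, in NK cells without mixed barcodes and in CD8 T cells without mixed barcodes; a black line marks the value without the cell of most Ccl4 UMIs. In the middle panel the exercise levels (77.1 to 311 CPM) lie above the sedentary ones (28.5 to 62.1 CPM), while the CD8 T levels overlap.

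The other 9 genes with the smallest p-values, 4 higher and 5 lower, were read at higher mean levels in tumour-like cells than in NK cells. Prune2 was at 55.3, 40.9 and 57.3 CPM against 157, 106 and 116 CPM (sedentary 1, 2 and 3 against exercise 5, 6 and 8), with a log2 fold of 1.26 (edgeR adjusted p = 0.0611) and 271 CPM in tumour-like cells. Without mixed barcodes it was at 0, 17.2 and 25.4 CPM against 28.0, 28.8 and 42.0 CPM. Anln, a cytokinesis gene, was at 33.6, 22.5 and 26.7 CPM against 62.3, 76.8 and 107 CPM (log2 fold 1.54, edgeR adjusted p = 0.0811; tumour-like cells 137 CPM). Fmr1 and Tspan5 had log2 folds of 0.88 and 1.63 (tumour-like 202 and 39.0 CPM). On the lower side were the matrix and stromal genes Dcn (log2 fold -1.41), Grem1 (-1.26), Gas1 (-1.08), Timp1 (-0.88) and Col3a1 (-0.65), which stood at 320.3, 191, 376, 218 and 999 CPM in tumour-like cells. Col3a1 turned to 0.11 without mixed barcodes. None of these 9 passed the threshold, and the part of tumour RNA in them was not tested beyond these values. The tumour-like list itself was higher in the sedentary NK sums, as given above.

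Killing genes had estimates below 0 without a call. Of 18 tested, 18 had a log2 fold below 0, 8 had an unadjusted edgeR p under 0.05 and 3 had groups that did not overlap, beside 5.97% and 11.1% of all genes. Over all genes 3051 of 6230 were above 0. The 8 were Gzma, Gzmb, Gzmd, Gzme, Gzmg, Srgn, Fasl and Serpinb6b, of which Gzmd, Gzme and Gzmg are close copies and not separate instances. Much of the Gzmd count of sedentary 2 lay in 1 cell, as given above. The summed list stood at 19190 CPM in sedentary 2 and at 8508 to 10193 CPM in the other libraries. The median log2 fold of the killing genes was -0.37 against -0.01 over all genes, and -0.14 without mixed barcodes, where 5 of 16 were above 0. Gzma was at 3424, 5677 and 3248 CPM against 2628, 2974 and 3352 CPM, a log2 fold of -0.49 (SE 0.17, edgeR adjusted p = 0.596), and -0.32 without mixed barcodes. The groups overlapped. Gzmb was at 997, 1117 and 884 CPM against 467, 955 and 672 CPM, also overlapping (log2 fold -0.54, edgeR adjusted p = 0.655). Serpinb6b was at 305, 382 and 361 CPM against 223, 237 and 247 CPM, with no overlap (log2 fold -0.60, edgeR adjusted p = 0.284), and -0.55 without mixed barcodes. Gzmd had a log2 fold of -1.65 that moved to -0.43 without mixed barcodes.

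The lineage and receptor genes showed no call between the groups. Eomes was at 144, 141 and 141 CPM against 112, 149.5 and 165 CPM (log2 fold -0.03, SE 0.17), with overlapping groups. Of 6 Ly49 genes 3 were above 0 (median 0.00), of 14 activating receptors and adaptors 3 (median -0.14), and of 20 transcription factors 5 (median -0.11). Klf2 was at 106, 198 and 76.3 CPM against 107, 66.0 and 67.2 CPM (log2 fold -0.70, edgeR adjusted p = 0.710). Tyrobp had a log2 fold of -0.14, Klra8 of 0.11 and Prf1 of -0.29.

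Gene lists for cell state held no call either. The cell cycle list had 9 of 15 genes above 0 (median 0.03), the interferon response list 6 of 14 (median -0.08), the glycolysis list 2 of 14 (median -0.23), the hypoxia list 3 of 11 (median -0.27) and the glucocorticoid and adrenergic list 3 of 5 (median 0.15). Mki67 had a log2 fold of 0.48 (SE 0.26) and Tsc22d3 of 0.38 (SE 0.37). Of 8 cytokine and chemokine genes tested 5 were above 0, with Xcl1 at 0.38, Ifng at 0.30 and Ccl5 at -0.45, none of them called.

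Whether exercise moved NK cells differently from CD8 T cells was tested with the interaction of cell class and group. With all members 0 of 8386 genes (0.0%) passed in edgeR, which gave 366 (4.36%) at an unadjusted p of 0.05, and DESeq2 called 0, with 62 at an unadjusted p of 0.05. On data simulated with the same assumed dispersion for every gene this test found 4% of 2-fold and 55% of 4-fold differences. Without mixed barcodes 6 of 6222 genes (0.0964%) passed and 317 (5.09%) had an unadjusted p under 0.05.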

How the data were processed

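Droplet 3′ RNA libraries (10x Genomics, version 3 chemistry, per the labels' protocols) of 6 unsorted tumour digests were analysed. The deposited values are raw UMI counts per gene and barcode (31053 features), which the authors made with Cell Ranger 6.1.2 on mm10, per the submitters' processing notes; the matrix files name software version 3.1.0, per the file headers. Of 58351 barcodes 52390 were kept, 5871 having failed the mitochondrial limit. Features sharing a symbol (35 symbols) were summed. NK and CD8 T cells were taken by the gates given in the report, and their counts were summed per library. The library was the replicate.

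Sums were tested with edgeR 4.0.16 (R 4.3.3; TMM scaling, filterByExpr, quasi-likelihood test, Benjamini-Hochberg over all genes tested, threshold 0.05), with DESeq2 1.42.0 as an alternative. The library was a block wherever NK and CD8 T sums of the same tumour entered 1 fit. Shares were compared with exact permutation tests (scipy 1.17.1). An SE given with a log2 fold was derived from that fold and its test statistic and was not estimated separately. It can understate the error where the counts of a class are low. NK totals of 416213 to 742380 UMIs per library set the precision. On counts simulated with the same assumed dispersion for every gene, the NK against CD8 T fit found 66% of 100 genes changed 2-fold and 93% of 100 changed 4-fold among 7636 genes.

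The members and gene lists were chosen with earlier results of these data known. The genes named were, against CD8 T cells, the 12 largest called folds in each direction with at least 50 CPM in the higher class and 1 direction in 6 libraries, and list members. For exercise they were called genes or the 5 smallest p-values per direction with at least 20 CPM, and a set list of NK genes. Some genes this rule takes are not reported here. The Itga1 and Itga2 split, the NK gene complex, and the mixed barcodes without the T cell list were chosen after values were seen. No doublet caller was run; mixed barcodes stand in its place. Other settings tried were gates, filters, scaling, thinning to 1500 UMIs, a 10% mitochondrial limit and leaving out libraries.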

Additional observations from a re-analysis of the deposited data

Results flagged for a closer look

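For 6 genes the exercise effect differed between NK and CD8 T cells by the interaction test of edgeR, only once mixed barcodes were left out. Values below are the log2 effect in NK cells minus that in CD8 T cells, and none of the 6 passed with all members (edgeR adjusted p of 0.401 to 0.999).

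For the chemokine Ccl4 the difference was 1.57 (edgeR adjusted p = 0.00404), and it was the only one of the 6 that stayed under 0.05 without each of the 6 libraries (edgeR adjusted p 0.00157 to 0.0366). For Ifitm1, an interferon-induced membrane gene, the difference was 2.56 (edgeR adjusted p = 0.00404, and 0.113 without sedentary 2). Its NK levels were 17.1, 82.8 and 120.5 CPM in sedentary 1, 2 and 3 and 143, 235 and 70.0 CPM in exercise 5, 6 and 8. Its CD8 T levels were 155, 413 and 253 CPM in sedentary 1, 2 and 3 and 26.0, 193 and 88.8 CPM in exercise 5, 6 and 8. Both classes overlapped between groups.

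For 3 genes the NK levels overlapped between groups and the mean CD8 T level was lower in exercise. The adaptor Fcer1g had a difference of 0.85 (edgeR adjusted p = 0.0331), with NK levels of 1861, 1817 and 1833 CPM in sedentary 1, 2 and 3 and 1835, 1942 and 1734 CPM in exercise 5, 6 and 8. Its CD8 T levels were 94.5, 64.9 and 94.4 CPM against 39.7, 54.1 and 46.3 CPM. The granzyme inhibitor family gene Serpinb9b had a difference of 1.99 (edgeR adjusted p = 0.0331), with NK levels of 64.2, 62.1 and 60.2 CPM against 41.9, 73.1 and 66.5 CPM and CD8 T levels of 31.7, 32.8 and 22.1 CPM against 6.68, 7.74 and 6.07 CPM. Styk1, a kinase-like receptor gene, had a difference of 1.77 (edgeR adjusted p = 0.0380), with NK levels of 149.7, 214 and 155 CPM against 189, 193 and 189 CPM and CD8 T levels of 15.0, 45.9 and 24.1 CPM against 6.68, 17.7 and 6.07 CPM. The CD8 T values of Fcer1g and Serpinb9b did not overlap between groups, and those of Styk1 did.

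Xcl1 had a difference of -1.12 (edgeR adjusted p = 0.0331), with NK levels of 573, 483 and 438 CPM against 569.6, 703 and 392 CPM and CD8 T levels of 94.5, 68.1 and 32.1 CPM against 129.6, 283 and 103 CPM, where the exercise values lay higher. Fcer1g stayed under 0.05 only without sedentary 2. Serpinb9b, Styk1 and Xcl1 were lost without at least 3 of the 6 libraries each, sedentary 2 and exercise 8 among them for Serpinb9b and Styk1, and sedentary 2, sedentary 3 and exercise 6 for Xcl1.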

How the results depend on the processing

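The exercise difference in NK share kept its sign under every setting run, from 0.235 to 0.608 percentage points without each library in turn. The difference in NK cells per 100 CD8 T cells (-1.02) had no stable sign: it was 0.019 with up to 1 Cd3 UMI allowed, 2.53 after thinning to 1500 UMIs, and -11.3 to 13.7 without each library, the highest without sedentary 3. The NK against CD8 T count of 1292 was 817 with DESeq2 (412 higher, 405 lower) and stayed within 1.5 times under the other settings, 1055 to 1156 without each library. With no replicate block it was 1133 (562 higher, 571 lower). No paired analysis was possible because the sedentary and exercise libraries share no replicate numbers. The count of exercise calls in NK cells was 0, but 53 with no filter on low counts (24 higher, 29 lower), 2 with library-size scaling (Anln and Prune2), 1 with a 10% mitochondrial limit (Prune2), 1 without mixed barcodes (Ccl4), and 0 to 3 without each library, with or without mixed barcodes; among all members the single call was Gas1 without sedentary 3, Anln without exercise 5 and Ccl4 without exercise 8. The interaction count of 0 was 13 with no filter, 10 when barcodes with T cell list UMIs were left out too, 6 without mixed barcodes, and 0 to 12 without each library. The cause of these moves was not tested.

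Some estimates of the exercise effect changed sign. With barcodes holding T cell list UMIs also left out, and then with mixed barcodes as defined in the report, Col3a1 was 0.078 and 0.11, Eomes 0.37 and 0.15, Klrk1 0.027 and 0.027, Itga1 1.10 and 0.22, Itga2 0.25 and 0.23, and Il2rb 0.069 and 0.043. In the first of these Fcer1g was 0.0038, Gzmc 0.64, Xcl1 -0.29 and Cd27 -0.0075, and in the second Klrc1 was 0.043. Eomes was 0.0061 with library-size scaling and 0.080 with at least 3 NK gene UMIs, and Itga2 0.0067 with the latter. Without each library Eomes ran from -0.14 to 0.12, Klrc1 from -0.34 to 0.055, Xcl1 from -0.10 to 0.62, Itga2 from -0.36 to 0.053 and Cd27 from -0.15 to 0.34. None of these was called. Of values for named genes against CD8 T cells, 364 kept direction and call under the settings other than leaving out a library, 4 lost the call and 4 gained it. With 77 to 198 NK cells per library and 3 libraries per group, a 2-fold change was found in 33% of cases simulated with the same assumed dispersion for every gene.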

Other observations

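Trdc, the constant gene of the T cell receptor delta chain, had a UMI in 11.4% to 18.5% of NK cells over the 6 libraries in 0% to 0.478% of CD8 T cells and in 0.0353% to 1.44% of tumour-like cells, although the gate left out every cell with a Cd3 UMI and Tcrg-C2 had no UMI in any NK cell. Trbc2, the beta chain constant gene, had a UMI in 25.9% to 31.2% of NK cells, 80.4% to 90.4% of CD8 T cells and 1.90% to 4.35% of tumour-like cells. Trac, the alpha chain constant gene, was seen in 1.52% to 3.70% of NK cells.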
